A study of Caenorhabditis elegans with 18 samples.

Results

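Small RNA reads were followed at 6 protein-coding genes of Caenorhabditis elegans that are known as templates of 22G RNAs or lie in the same pathway: bath-45, F37D6.3, C44B11.6, E01G4.5, Y43F8B.9 and sago-2. They were chosen by name, 6 of the 20134 genes in the deposited count table, which also holds 55259 unnamed intervals. Each had a row of its own and all 6 passed the filter on low counts, among 11648 features tested. The libraries come from RNA immunoprecipitation (IP) of a FLAG-tagged Argonaute from whole worms staged at the last larval stage (L4) and grown at 15 °C, and from the input extract. There are 6 groups of 3 libraries, lettered A, B and C. They are the IP of WAGO-1 from 1xFLAG::WAGO-1 dpf-3{delta} animals, which carry the tag and a deletion of dpf-3 (the deletion IP), the IP of WAGO-3 from 1xFLAG::WAGO-3 animals, the IP of WAGO-1 from 1xFLAG::WAGO-1 animals, and the input of each of these strains. All strains thus carry a FLAG tag on an Argonaute, and an IP from untagged animals was not analysed here. The title of the series names the processing of Argonautes by a protease, and dpf-3 encodes a dipeptidyl peptidase.

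22G RNAs are short antisense RNAs, most beginning with G, that RNA-dependent RNA polymerases copy from a target transcript and that worm-specific Argonautes, the WAGOs, then carry. A 22G RNA made on a transcript maps to the gene of that transcript, so reads at a gene are taken here as small RNAs and not as a measure of its mRNA. No selection of reads by strand, length or first base was made here, so other reads at a gene may be in its count. Synthesis can be started by different primary small RNAs, among them piRNAs in the germ line and 26G RNAs bound by the Argonaute ERGO-1. bath-45 encodes a protein with BTB and MATH domains and is known as a germline target of the piRNA pathway. C44B11.6 and E01G4.5 are known as targets in the ERGO-1 branch. sago-2 encodes a secondary Argonaute that acts in RNA interference, so small RNAs made against this Argonaute gene would be counted in its row. F37D6.3 and Y43F8B.9 have no gene name in the tables used here.

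The loci lie on 4 chromosomes (RefSeq spans, build ce11, also called WBcel235). bath-45 (WBGene00009247) lies on chromosome II from 13123020 to 13125189, F37D6.3 (WBGene00009509) on I from 10486699 to 10487341, and C44B11.6 (WBGene00016635) on III from 3153148 to 3153336. E01G4.5 (WBGene00008447) lies on II from 13472401 to 13473995, Y43F8B.9 (WBGene00012819) on V from 19478152 to 19480465, and sago-2 (WBGene00018921) on I from 618160 to 621490. With 189 bases C44B11.6 is the shortest span, and with 3331 bases sago-2 is the longest. The sago-2 span lies within that of eme-1. Whether strand was used in counting, and how reads on both genes were assigned, is not given in the sources used here. Reads that fall on both genes may thus be in either row, or in neither if they were set aside as ambiguous. The eme-1 row held 384, 81 and 127 reads in the deletion, WAGO-3 and WAGO-1 IPs, against 13, 8 and 27 in their inputs. The other 5 spans overlap no other RefSeq gene. Of the unnamed intervals, 2 overlap bath-45 and held 34 reads in all 18 libraries together. An interval upstream in coordinate of F37D6.3 (I, 10486040 to 10486204) held 58 reads in the deletion IP, 90 in the WAGO-3 IP and 86 in the WAGO-1 IP, against 0, 3 and 2 reads in the inputs of those strains. That interval shows a low-count signal beside the locus and is not part of the F37D6.3 values.

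The IP libraries held 2206087 to 5649896 counts in genes and intervals, and the inputs 88761 to 517278. Reads in no feature made up 32.5% to 38.6% of counted reads in IPs and 68.6% to 82.4% in inputs. Values below are depth-scaled counts (CPM) on the TMM scale, which takes its factors from the bulk of features after trimming extremes. Its factors ran from 0.434 to 1.10 in the IPs and from 1.31 to 2.37 in the inputs. A scaling by total feature counts moves the median log2 fold of all features by -1.07, -1.62 and -1.44 in the IPs of the deletion, WAGO-3 and WAGO-1 over their inputs, and by 1.13 and 0.76 in the deletion over the intact strain for IPs and inputs. Folds are therefore relative to the TMM scale, and for the 6 loci the value on total counts stands beside them wherever the direction or the call differs. The 6 loci took 1.36% to 1.68% of the feature counts in each IP and 1.75% to 2.13% in each input. Within groups, chi-square per degree of freedom between library pairs ran from 1.05 to 7.44, with replicate A of the WAGO-1 IP (5.23 and 7.44 against B and C, which gave 1.54) and replicate A of the deletion IP (3.55 and 2.46, against 1.30 for B and C) standing apart. As a check of the genotype, dpf-3 itself had 6 reads in the deletion input and 39 in the WAGO-1 input (log2 fold -1.73, edgeR adjusted p = 0.0199, and -0.97, adjusted p = 0.214, on total counts), and 51 in the deletion IP and 30 in the WAGO-1 IP (log2 fold -0.54, adjusted p = 0.186, and 0.57, adjusted p = 0.12, on total counts). Small RNAs are not mRNA, so this checks the labels only weakly. Nothing in the labels says that the 3 libraries of a group came from separate cultures, so p-values measure the spread between these libraries, which may be technical.

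bath-45 and F37D6.3 held the most small RNAs of the 6 loci in every IP, and C44B11.6 was of a similar order in the inputs, above both in the deletion and below both in the WAGO-3 strain. The other loci were far below. bath-45 had 6887, 7459.6 and 7072 CPM in the deletion IP (replicates A, B and C), 22212, 21745 and 20649 in the WAGO-3 IP and 8934, 11035 and 11379 in the WAGO-1 IP. Its inputs held 2279.9, 2400.4 and 2311 CPM in the deletion, 4992, 4761 and 5288 in the WAGO-3 strain and 4247, 4309 and 4461 in the WAGO-1 strain. On this scale all 9 IP libraries lay above all 9 inputs, and the WAGO-3 IP lay above the others. By mean CPM, bath-45 ranked 17, 12 and 22 among the 20134 genes in the deletion, WAGO-3 and WAGO-1 IPs and 20 in each input. F37D6.3 had 7949, 7432 and 7361 CPM in the deletion IP, 14604, 15059 and 14674 in the WAGO-3 IP and 18941, 17460.4 and 17833 in the WAGO-1 IP. Its inputs held 2153, 1679 and 1884 CPM in the deletion, 4754, 5128 and 5233 in the WAGO-3 strain and 4389, 4752 and 4688 in the WAGO-1 strain. Here the WAGO-1 IP was the highest of the 6 groups and the deletion input the lowest, with no overlap between either and the rest.

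C44B11.6, E01G4.5 and Y43F8B.9 showed the opposite layout, with every input library above every IP library. C44B11.6 had 341, 344 and 348 CPM in the deletion IP, 259.5, 273 and 316 in the WAGO-3 IP and 535, 538 and 545 in the WAGO-1 IP, against 3230.2, 3046 and 3185 in the deletion input, 3689.7, 4102 and 4319.5 in the WAGO-3 input and 4163, 4608 and 4480.0 in the WAGO-1 input. It ranked 8, 24 and 19 among genes in the inputs of the deletion, WAGO-3 and WAGO-1 strains, and 286, 526 and 335 in their IPs. E01G4.5 had 34.5, 42.8 and 44.2 CPM in the deletion IP, 31.2, 26.4 and 24.2 in the WAGO-3 IP and 65.7, 70.8 and 92.8 in the WAGO-1 IP, against 184, 189.8 and 251, 308, 357 and 287 and 447, 438 and 403 in the inputs of the deletion, WAGO-3 and WAGO-1 strains. On the TMM scale both loci had their highest IP level in the WAGO-1 IP and their lowest in the WAGO-3 IP. On total counts the deletion IP was the highest for both, at 373 CPM against 265 in the WAGO-1 IP for C44B11.6, and 43.95 against 37.6 for E01G4.5. Y43F8B.9 was rare in the IPs, with 59, 35 and 68 reads in the deletion IP libraries, 17, 21 and 6 in the WAGO-3 IP and 20, 39 and 45 in the WAGO-1 IP. On the CPM scale these were 9.84, 7.41 and 11.4, 10.8, 12.9 and 6.05 and 14.4, 14.8 and 16.8, against 218, 152 and 173, 272, 288 and 307 and 249, 360.2 and 344 in the inputs of the deletion, WAGO-3 and WAGO-1 strains. The 6 reads of WAGO-3 replicate C set the spread of that group, and a count of 3 is worth 3.03 CPM in that library.

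sago-2 was a low-count locus whose IPs and inputs overlapped in the deletion and in the WAGO-3 strain. It had 53.7, 52.1 and 59.0 CPM in the deletion IP, 40.8, 39.2 and 31.3 in the WAGO-3 IP and 24.6, 23.6 and 33.3 in the WAGO-1 IP. The inputs held 42.1, 66.4 and 77.4 CPM in the deletion, 46.4, 62.0 and 32.6 in the WAGO-3 strain and 74.0, 42.6 and 33.6 in the WAGO-1 strain, from 46, 49 and 67 reads. All 3 deletion IP libraries lay above the 3 WAGO-1 IP libraries, and the inputs of the 3 strains overlapped throughout.

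**Figure D1:**
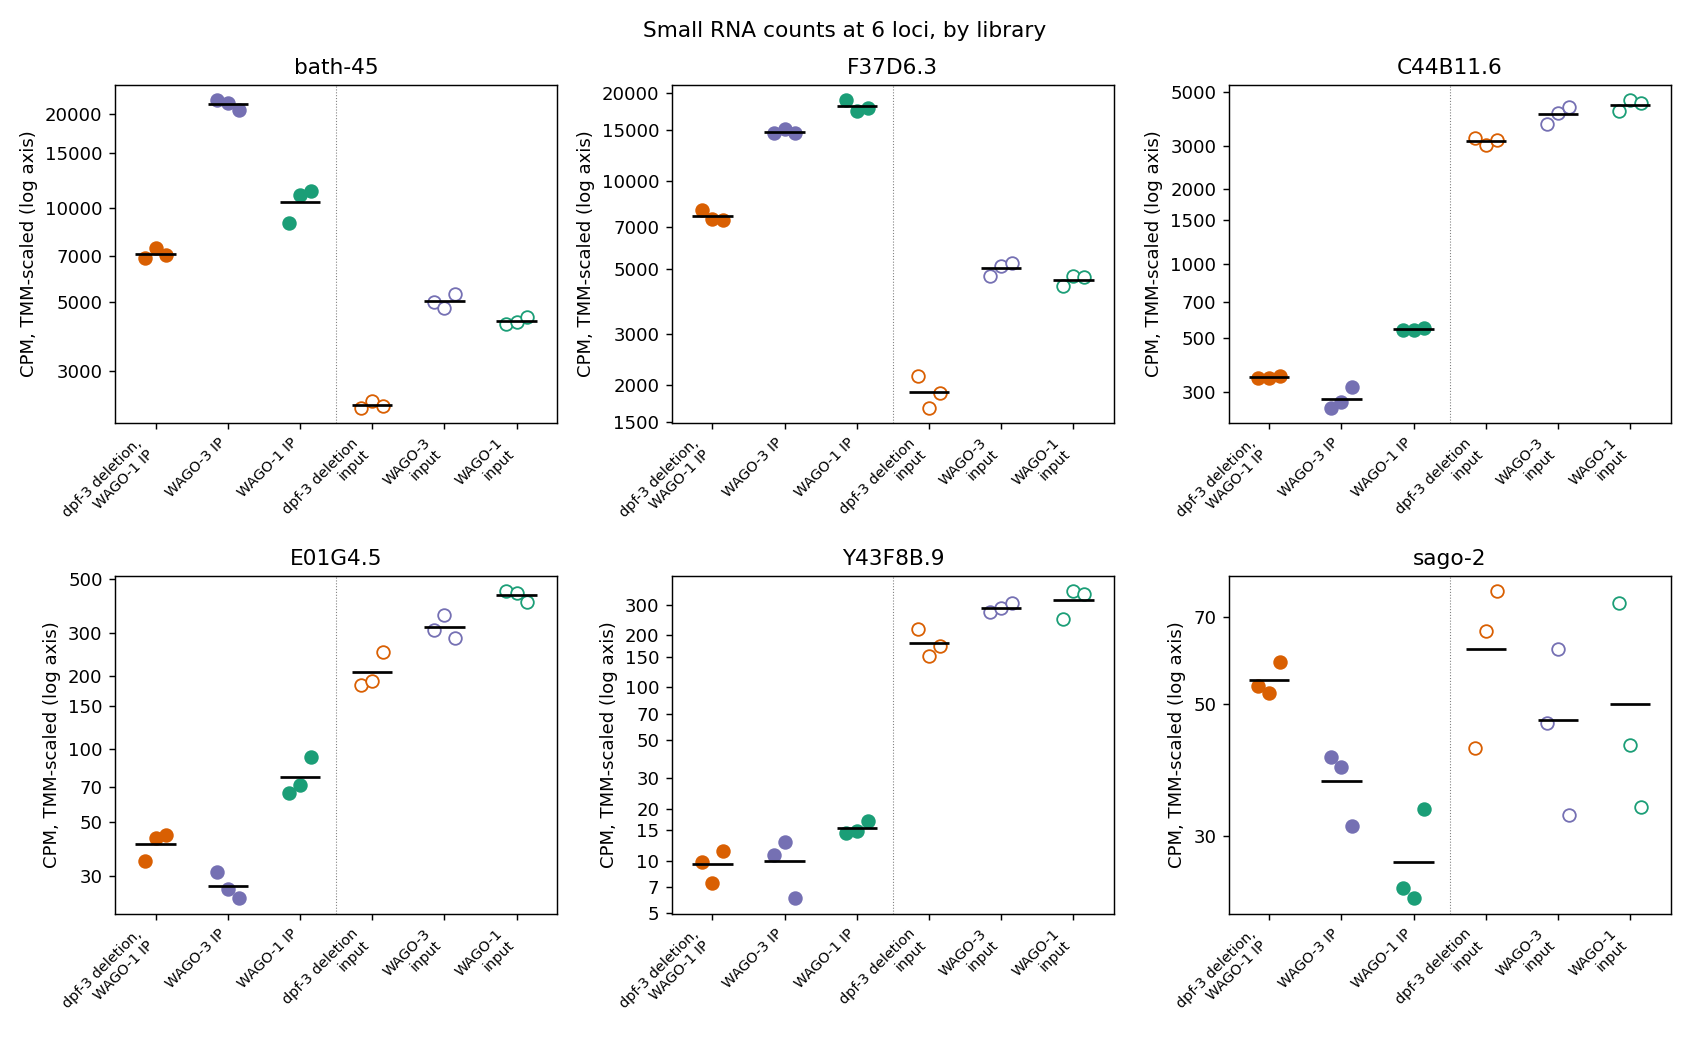
TMM-scaled CPM (log axis, scaled separately for each locus) of small RNAs at the 6 loci in each library, with filled points for IPs and open points for inputs. Bars mark the mean of the 3 libraries of a group. bath-45 and F37D6.3 have all IP libraries above all inputs, while C44B11.6, E01G4.5 and Y43F8B.9 have all inputs above all IPs.

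Set per kilobase of RefSeq span, C44B11.6 was the most densely covered locus in the inputs, with mean levels of 16685, 21359.5 and 23370.3 CPM per kb in the deletion, WAGO-3 and WAGO-1 inputs. F37D6.3 came next there, with levels of 2963, 7836 and 7169 CPM per kb, and bath-45 followed with 1074, 2311 and 1999.7. The ranges of these 3 loci did not overlap within any input group. In the IPs the order was different: F37D6.3 led with 11789, 22984 and 28115 CPM per kb in the deletion, WAGO-3 and WAGO-1 IPs, ahead of bath-45 with 3290.1, 9924 and 4815 and C44B11.6 with 1823, 1496 and 2855. E01G4.5 followed at 25.4, 17.1 and 47.9 CPM per kb in these IPs, then sago-2 at 16.5, 11.14 and 8.15, and Y43F8B.9 was lowest at 4.13, 4.29 and 6.65. In the inputs Y43F8B.9, at 78.3, 125 and 137 CPM per kb, stood above sago-2, at 18.6, 14.1 and 15.0. These levels divide by the whole span, introns included, since the annotation used for counting is not given in the sources used here.

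For each strain, the level of small RNAs at a locus was set against that in the extract. On the TMM scale this level is relative to the bulk of features. Only total counts give a locus's share of the feature counts of a library. bath-45 and F37D6.3 were higher in each IP on the TMM scale, and C44B11.6, E01G4.5 and Y43F8B.9 were lower in each. For WAGO-1 in the deletion, 2 of the 6 loci were called higher and 3 lower (edgeR, adjusted p under 0.05), beside 32.9% and 21.2% of all features. For WAGO-3, 2 were higher and 3 lower, beside 34.8% and 26.8%. For WAGO-1, 2 were higher and 4 lower, beside 43.2% and 24.9%. On the TMM scale the 2 loci called higher thus make up a share of the 6 near that of all features, while the loci called lower make up a larger one. The median log2 fold over the 6 was -1.27, -1.94 and -1.60 for the deletion, WAGO-3 and WAGO-1, against 0.40, 0.23 and 0.52 over all features. On total counts 2 loci were higher and 4 lower in the deletion, 1 and 4 with WAGO-3, and 1 and 5 with WAGO-1. There, the features called higher and lower numbered 1493 and 4315 in the deletion, 1185 and 6063 with WAGO-3, and 1434 and 5686 with WAGO-1, where the TMM scale gave 3831 and 2464, 4048 and 3122, and 5037 and 2896. The inputs alone went through a small RNA purification kit, per the labels, so binding, bead background and this step cannot be told apart.

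bath-45, the BTB and MATH domain gene, averaged 7139.5 ± 292 CPM in the deletion IP and 2331 ± 62.5 in its input (SD, n = 3 each), a log2 fold of 1.62 ± 0.07 (SE), with an adjusted p of 1.57e-43. The log2 fold was 2.10 ± 0.07 (SE), with an adjusted p of 6.94e-58, for WAGO-3, where the IP averaged 21536 ± 803 CPM and the input 5014 ± 264. It was 1.27 ± 0.07 (SE), with an adjusted p of 1.21e-36, for WAGO-1, where the IP averaged 10449.5 ± 1324 CPM and the input 4339 ± 110.0. Every IP library lay above its inputs on the TMM scale. On total counts bath-45 was 0.54 in the deletion and 0.46 with WAGO-3, and turned to -0.19 with WAGO-1 (adjusted p = 0.00605), where the libraries overlapped. F37D6.3 averaged 7580.5 ± 321 CPM in the deletion IP and 1905 ± 238 in its input, a log2 fold of 1.99 ± 0.07 (SE), with an adjusted p of 1.70e-52. For WAGO-3 its IP averaged 14779 ± 245 CPM and its input 5038 ± 252, a log2 fold of 1.55 ± 0.07 (SE), with an adjusted p of 2.10e-45, and for WAGO-1 18078 ± 770.4 and 4609 ± 194, a log2 fold of 1.97 ± 0.07 (SE), with an adjusted p of 1.07e-55. On total counts these became 0.91, -0.08 (adjusted p = 0.206) and 0.51. With the TMM factors recomputed, leaving out any WAGO-1 IP library moved the median WAGO-1 fold of all features by -0.42 to -0.43. In leave-outs with recomputed factors, the WAGO-1 folds of bath-45 and F37D6.3 ran as low as 0.77 and 1.49, still called. Against all features, bath-45 stood at the 72.7, 82.7 and 64.9 percentile of log2 folds in the deletion, WAGO-3 and WAGO-1, and F37D6.3 at the 79.8, 73.3 and 82.3 percentile. Both loci thus lay in the upper part of the distribution, with many features above them.

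C44B11.6, known as a target in the ERGO-1 branch, averaged 344 ± 3.58 CPM in the deletion IP and 3154 ± 96.3 in its input, a log2 fold of -3.20 ± 0.08 (SE), with an adjusted p of 7.18e-73. With WAGO-3 the IP averaged 283 ± 29.4 CPM and the input 4037 ± 319.9 (-3.85 ± 0.08, adjusted p = 2.25e-79), and with WAGO-1 539.6 ± 5.07 and 4417 ± 229 (-3.03 ± 0.08, adjusted p = 9.50e-72). The level of its small RNAs was 9.16-fold lower in the deletion IP than in the input, 14.4-fold lower in the WAGO-3 IP and 8.20-fold lower in the WAGO-1 IP. E01G4.5, of the same branch, averaged 40.5 ± 5.21 CPM in the deletion IP and 208 ± 37.0 in its input, 27.3 ± 3.61 and 317 ± 35.9 with WAGO-3, and 76.4 ± 14.4 and 429 ± 23.4 with WAGO-1. Its log2 folds were -2.37 ± 0.17, -3.53 ± 0.16 and -2.46 ± 0.11 (adjusted p = 1.38e-26, 2.39e-43 and 9.78e-43). The last was -3.07 without replicate C of the WAGO-1 IP with the TMM factors recomputed. Leave-outs with the factors kept gave -2.64 to -2.39. Y43F8B.9 had the lowest log2 folds of the 6 loci, -4.23 ± 0.21 in the deletion, -4.77 ± 0.20 with WAGO-3 and -4.39 ± 0.15 with WAGO-1 (adjusted p = 9.13e-40, 6.86e-48 and 1.39e-55). These folds were larger still on total counts, where Y43F8B.9 stood at -5.31, -6.40 and -5.84. On the TMM scale Y43F8B.9 lay at the 1.19, 3.83 and 1.21 percentile of all features in the deletion, WAGO-3 and WAGO-1, C44B11.6 at the 2.98, 7.82 and 4.12, and E01G4.5 at the 6.11, 9.05 and 7.36. All 3 loci kept their direction and call in these IP-over-input folds under every scaling, filter, tool and leave-out run.

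sago-2, the secondary Argonaute gene, averaged 54.9 ± 3.58 CPM in the deletion IP and 62.0 ± 18.04 in its input (SD, n = 3 each), and the log2 fold of -0.17 ± 0.24 was not called (adjusted p = 0.562). On total counts it was -1.24 (adjusted p = 3.19e-05) and on all counted reads 0.62 (adjusted p = 0.0129), so its direction in the deletion rests on the scaling. With WAGO-3 the log2 fold was -0.35 ± 0.26 and was not called (adjusted p = 0.231), though on total counts it was -1.99. With WAGO-1 the locus was lower in the IP, -0.74 ± 0.23 (adjusted p = 0.00327). Without replicate C of the WAGO-1 IP it was -1.38 with the TMM factors recomputed, and leave-outs with the factors kept gave -0.95 to -0.49. With WAGO-1 input replicate A left out, which held 74.0 CPM from 22 reads, that call was lost (-0.49, adjusted p = 0.0927).

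**Figure D2:**
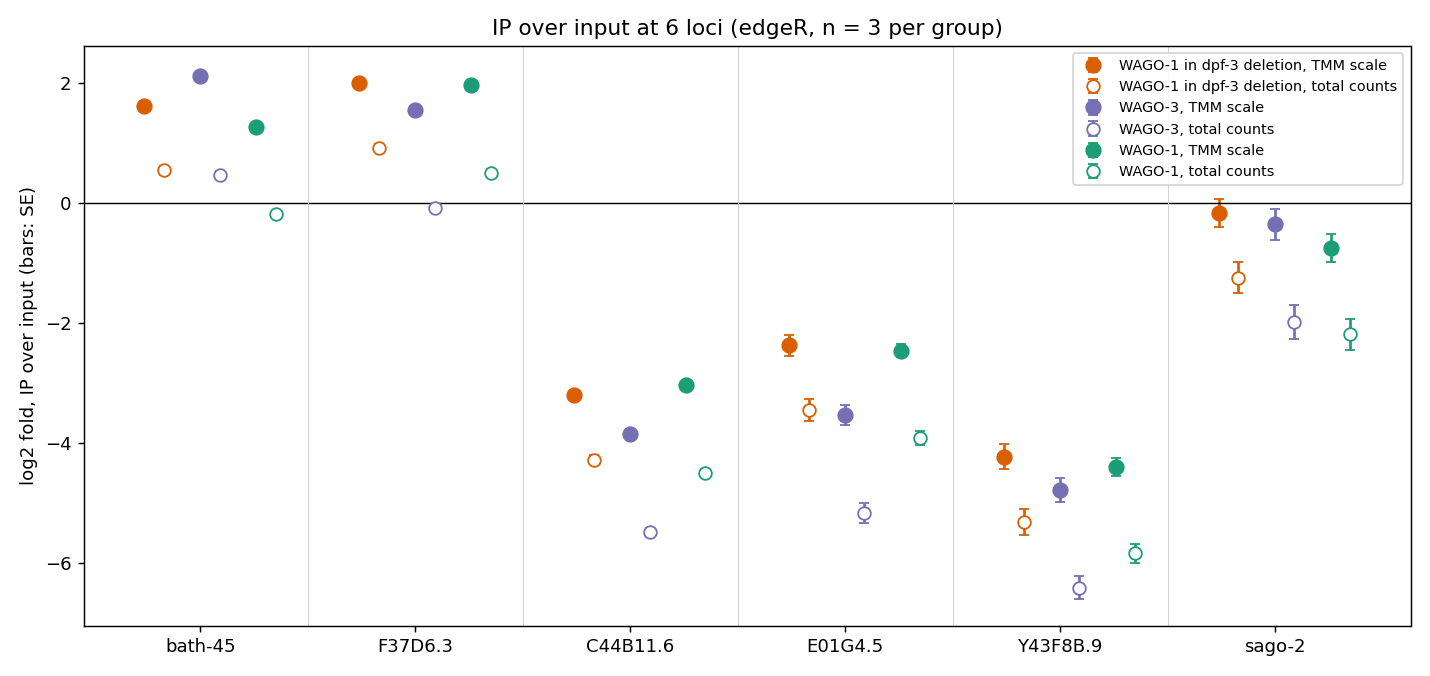
log2 fold of IP over input at the 6 loci for WAGO-1 in the dpf-3 deletion, WAGO-3 and WAGO-1 (edgeR, n = 3 per group, bars are SE, often smaller than the point). Filled points use the TMM scale and open points total counts. C44B11.6, E01G4.5 and Y43F8B.9 lie below 0 on both scales in all 3 IPs, while bath-45 with WAGO-1 lies at 1.27 on the TMM scale and -0.19 on total counts.

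The deletion IP set against the WAGO-1 IP asks how the content of WAGO-1 differs without dpf-3. On the TMM scale 1 of the 6 loci, sago-2, was called higher in the deletion and the other 5 were called lower, beside 30.6% and 31.8% of all features. Between the inputs 0 of the 6 were called higher and 5 were called lower, beside 8.61% and 14.9%. Of all features, 3559 were higher and 3709 lower between the IPs on the TMM scale, where total counts gave 8062 and 1972, and between the inputs 1003 and 1737, where total counts gave 3384 and 1183. Between the IPs the direction of 4 of the 6 loci turns with this choice, and on total counts 4 were called higher and 0 lower. Between the inputs only C44B11.6 turns, and on total counts 2 were called higher and 1 lower. Between the inputs, the number called higher on the TMM scale was also 0 at an unadjusted p under 0.05 and with DESeq2.

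sago-2 averaged 54.9 ± 3.58 CPM in the deletion IP and 27.2 ± 5.35 in the WAGO-1 IP (SD, n = 3 each), 1.99-fold higher in the deletion, with a log2 fold of 0.99 ± 0.13 (SE), with an adjusted p of 7.04e-11. Every deletion IP library lay above every WAGO-1 IP library on the TMM scale and on total counts, where the log2 fold was 2.13. It stayed called under every scaling, filter, tool and leave-out run, with 1.66 without replicate C of the WAGO-1 IP. Between the inputs sago-2 was at 62.0 ± 18.04 CPM in the deletion and 50.1 ± 21.2 in the WAGO-1 strain, a log2 fold of 0.42 ± 0.30 (SE), with an adjusted p of 0.343 (1.18 on total counts, adjusted p = 9.61e-04). The 46 and 67 reads behind those inputs leave the size of that difference wide. eme-1, whose span holds sago-2, had 23.1 ± 2.28 CPM in the deletion IP and 18.6 ± 2.42 in the WAGO-1 IP, a log2 fold of 0.28 ± 0.17 (adjusted p = 0.141), and 1.41 on total counts (adjusted p = 2.27e-13), where it was called higher. Its part in the sago-2 value was not tested.

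F37D6.3 averaged 7580.5 ± 321 CPM in the deletion IP and 18078 ± 770.4 in the WAGO-1 IP, a log2 fold of -1.25 ± 0.07 (SE), with an adjusted p of 1.93e-38. Its inputs averaged 1905 ± 238 CPM in the deletion and 4609 ± 194 in the WAGO-1 strain, a log2 fold of -1.27 ± 0.07 (SE), with an adjusted p of 6.51e-33. On total counts the IPs differed by -0.11 (adjusted p = 0.0574) and the inputs by -0.52 (adjusted p = 4.58e-11), so between the inputs F37D6.3 was lower in the deletion on both scales. bath-45 had a log2 fold of -0.55 ± 0.07 (SE), with an adjusted p of 3.65e-13, between the IPs, and -0.90 ± 0.07 (SE), with an adjusted p of 2.55e-21, between the inputs. On total counts bath-45 turned to 0.59 between the IPs (adjusted p = 9.28e-16) and lost its call between the inputs (-0.14, adjusted p = 0.097). Leaving out replicate B or C of the WAGO-1 IP, with the TMM factors recomputed, also ended the bath-45 call between the IPs (-0.05 and -0.02, adjusted p = 0.569 and 0.802), since any of these 3 libraries left out moved the median of all features by 0.45 to 0.47. With the factors kept, the bath-45 call held in every leave-out.

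C44B11.6 stood at a log2 fold of -0.65 ± 0.07 (SE), with an adjusted p of 1.24e-14, between the IPs, and -0.49 ± 0.07 (SE), with an adjusted p of 1.19e-08, between the inputs, and turned to 0.49 and 0.27 on total counts (adjusted p = 2.20e-11 and 5.43e-04). Leaving out WAGO-1 IP replicate A, B or C, with the TMM factors recomputed, took C44B11.6 to -0.18, -0.19 and -0.18 between the IPs, still called (adjusted p = 0.00858, 0.0339 and 0.0389). E01G4.5 stood at -0.95 ± 0.11 (SE), with an adjusted p of 2.93e-13, between the IPs, and -1.03 ± 0.14 (SE), with an adjusted p of 1.02e-09, between the inputs. On total counts E01G4.5 was 0.19 and -0.27 and was called in neither (adjusted p = 0.106 and 0.138). With the factors recomputed on the TMM scale, the same leave-outs took E01G4.5 to -0.55, -0.56 and -0.30 between the IPs, still called. On the TMM scale both loci were thus called lower in the deletion, and on total counts neither was. Y43F8B.9 was -0.68 ± 0.20 (SE), with an adjusted p of 0.00198, between the IPs, and -0.84 ± 0.16 (SE), with an adjusted p of 3.38e-06, between the inputs, with 0.45 and -0.08 on total counts (adjusted p = 0.0265 and 0.722). Between the IPs the Y43F8B.9 call was lost on leaving out WAGO-1 IP replicate A, B or C once the factors were recomputed (-0.24, -0.26 and -0.13).

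**Figure D3:**
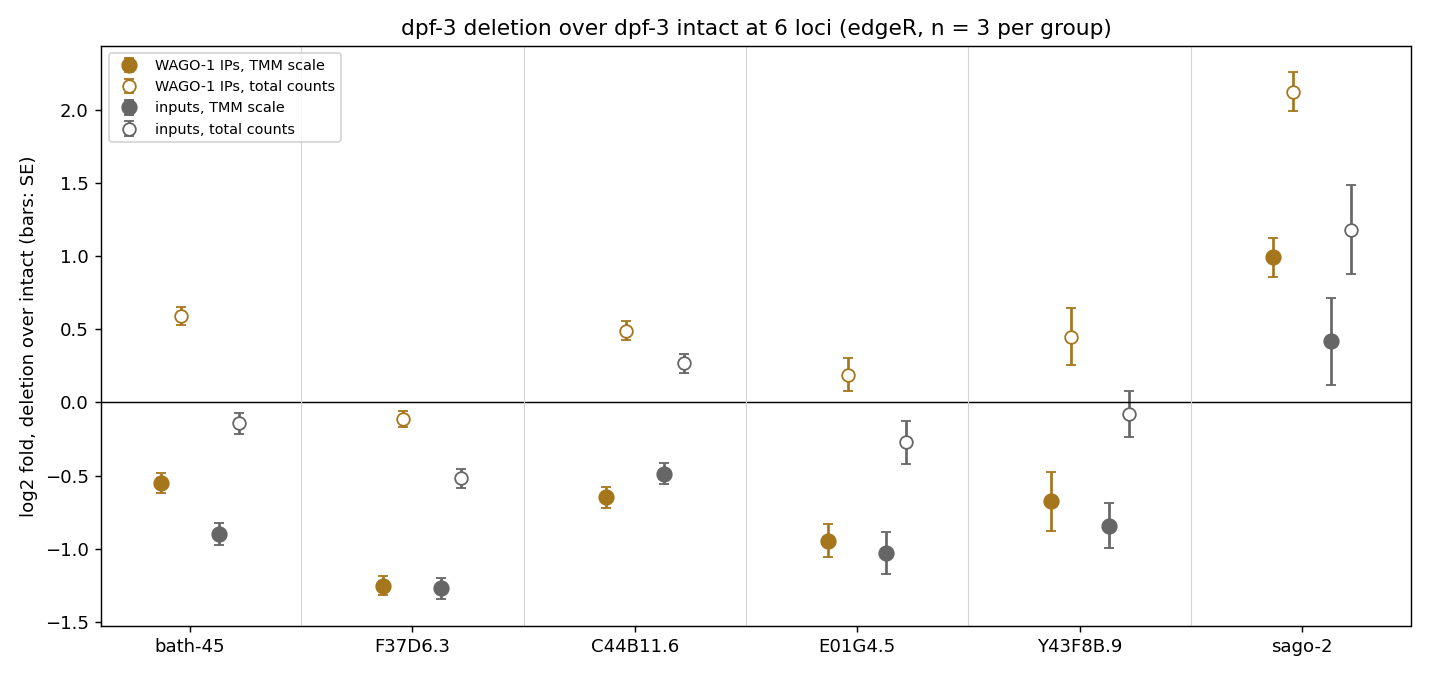
log2 fold of the dpf-3 deletion over the intact strain at the 6 loci, for WAGO-1 IPs and for inputs (edgeR, n = 3 per group, bars are SE). Filled points use the TMM scale and open points total counts. sago-2 between the IPs lies above 0 on both scales (0.99 and 2.13), while bath-45, C44B11.6, E01G4.5 and Y43F8B.9 cross 0 between the scales.

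Ratios of reads between loci within a library do not depend on any scaling. The ratios given were chosen after their values were seen and carry no test. bath-45 reads per F37D6.3 read were 0.866, 1.00 and 0.961 in the deletion IP, 1.52, 1.44 and 1.41 in the WAGO-3 IP and 0.472, 0.632 and 0.638 in the WAGO-1 IP. In the inputs they were 1.06, 1.43 and 1.23 in the deletion, 1.05, 0.928 and 1.01 in the WAGO-3 strain and 0.968, 0.907 and 0.952 in the WAGO-1 strain. These 2 loci thus stood near 1 to 1 in the WAGO-3 and WAGO-1 inputs and at 1.06 to 1.43 in the deletion input. WAGO-3 held more bath-45 reads and WAGO-1 more F37D6.3 reads, with no overlap between the 3 IPs. In the deletion IP the pair lay between those of the WAGO-3 and WAGO-1 IPs.

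C44B11.6 reads per F37D6.3 read averaged 0.0455 ± 0.00229 in the deletion IP, 0.0191 ± 0.00207 in the WAGO-3 IP and 0.0299 ± 0.00141 in the WAGO-1 IP (SD, n = 3), against 1.67 ± 0.158, 0.800 ± 0.0246 and 0.958 ± 0.0107 in the inputs of the deletion, WAGO-3 and WAGO-1 strains. The ratio was higher in the deletion than in the WAGO-1 strain in every library, both in IPs and in inputs. E01G4.5 reads per C44B11.6 read averaged 0.117 ± 0.0142, 0.0979 ± 0.0219 and 0.142 ± 0.0252 in the deletion, WAGO-3 and WAGO-1 IPs and 0.0660 ± 0.0113, 0.0790 ± 0.0110 and 0.0975 ± 0.00899 in their inputs. Y43F8B.9 reads per E01G4.5 read averaged 0.239 ± 0.0584, 0.362 ± 0.120 and 0.204 ± 0.0199 in those IPs, against 0.893 ± 0.261, 0.918 ± 0.135 and 0.744 ± 0.163 in the inputs. In each strain the ratio of Y43F8B.9 to E01G4.5 was lower in every IP library than in every input. sago-2 reads per E01G4.5 read were 1.56, 1.22 and 1.33 in the deletion IP, 1.31, 1.49 and 1.29 in the WAGO-3 IP and 0.374, 0.333 and 0.359 in the WAGO-1 IP, against 0.229, 0.350 and 0.309, 0.151, 0.174 and 0.114 and 0.165, 0.0973 and 0.0833 in the inputs of the deletion, WAGO-3 and WAGO-1 strains. Every IP library stood above its own inputs in this ratio, and the deletion IP and the WAGO-3 IP overlapped, both above the WAGO-1 IP. sago-2 reads per bath-45 read averaged 0.00771 ± 0.000680 in the deletion IP, 0.00172 ± 0.000178 in the WAGO-3 IP and 0.00260 ± 0.000413 in the WAGO-1 IP. The inputs of these strains averaged 0.0265 ± 0.00756, 0.00950 ± 0.00343 and 0.0116 ± 0.00517. Here every IP library lay below its own inputs, and the deletion lay above the WAGO-1 strain in both IPs and inputs.

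**Figure D4:**
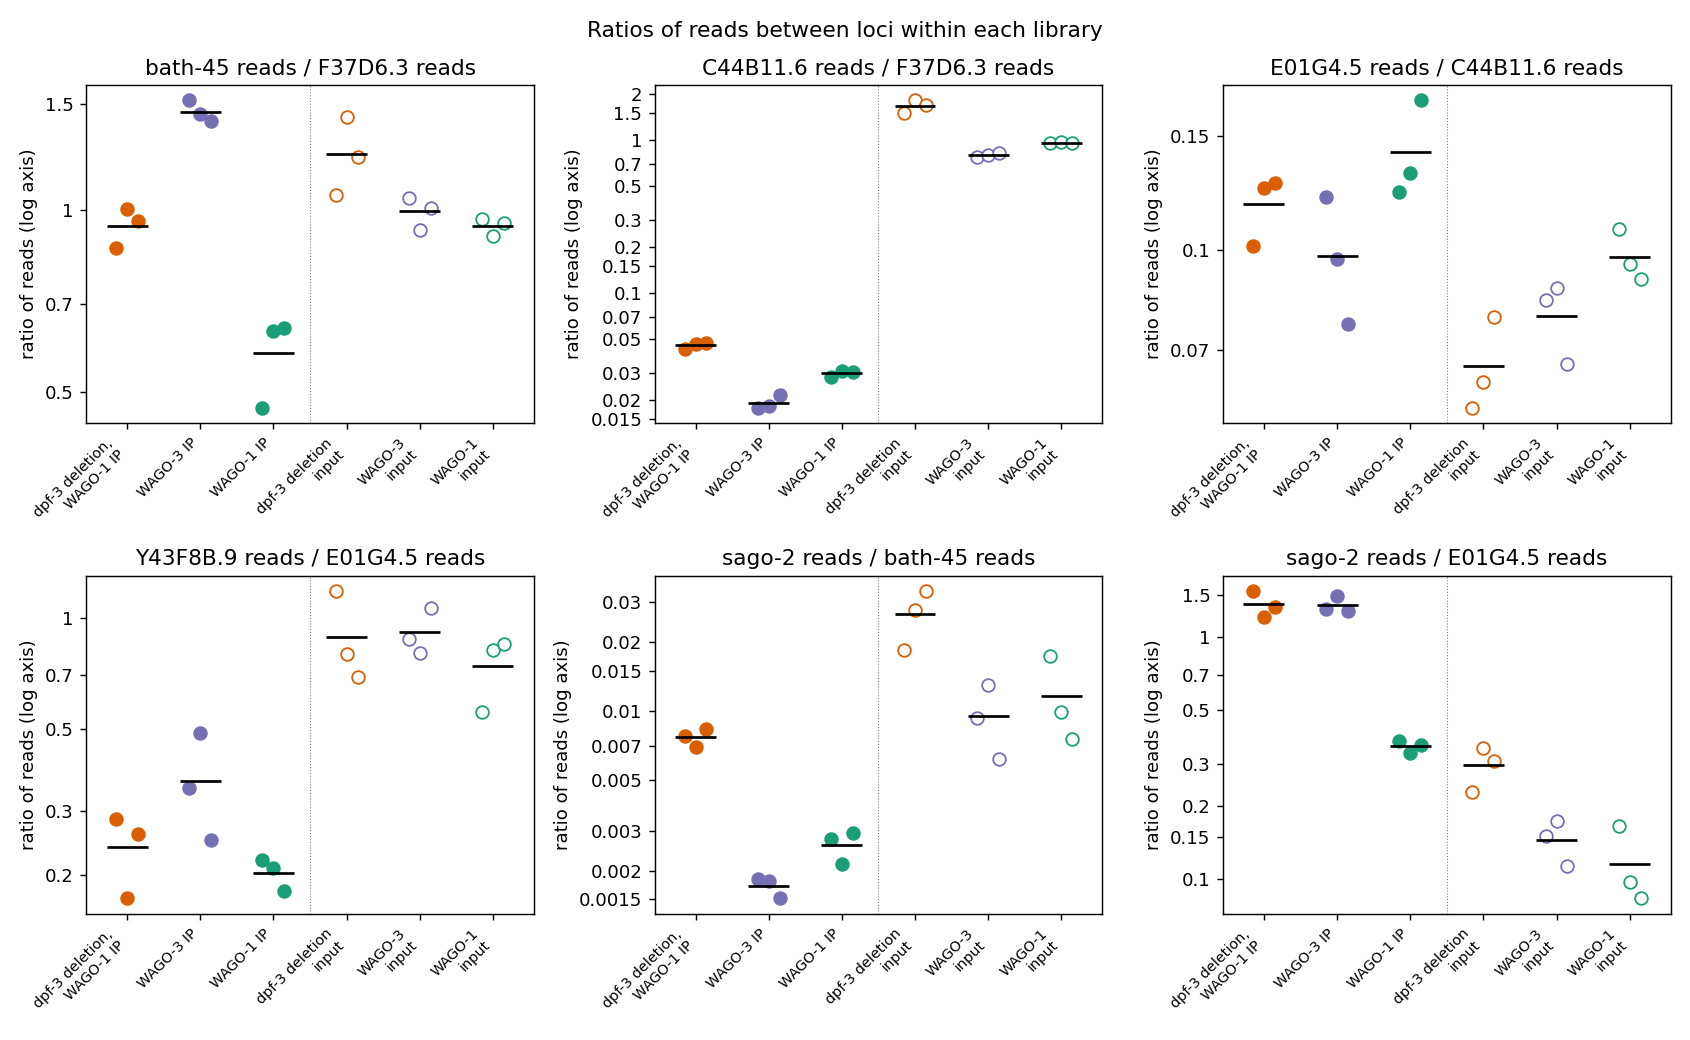
Ratio of reads between pairs of the 6 loci within each library (log axis, scaled separately for each pair), with filled points for IPs and open points for inputs. Bars mark the mean of the 3 libraries. bath-45 over F37D6.3 separates the 3 IPs, with the WAGO-3 IP highest and the WAGO-1 IP lowest.

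Whether the enrichment itself differed was tested as a difference of the IP-over-input folds. Between the deletion and the WAGO-1 strain 1 of the 6 loci, bath-45, was called higher and 0 lower, beside 1.55% and 0.661% of all features. The number lower was also 0 at an unadjusted p under 0.05 and with DESeq2. bath-45 was enriched by 1.62 in the deletion and 1.27 in the WAGO-1 strain, a difference of 0.35 ± 0.10 (SE), with an adjusted p of 0.034 (0.73 on total counts). With the factors recomputed, leaving out WAGO-1 IP replicate A, B or C raised it to 0.83, 0.96 and 0.99. With the factors kept, the bath-45 call was lost on leaving out WAGO-1 IP replicate A (0.25, adjusted p = 0.136), B or C of the deletion IP (0.32 and 0.35), B or C of the WAGO-1 input (0.35 and 0.33), or A or C of the deletion input (0.33 and 0.34). The other differences, none of them called, were 0.02 ± 0.10 for F37D6.3, -0.16 ± 0.10 for C44B11.6, 0.08 ± 0.19 for E01G4.5, 0.16 ± 0.26 for Y43F8B.9 and 0.57 ± 0.32 for sago-2 (adjusted p from 0.486 to 0.972). On total counts F37D6.3 was called higher (0.41, adjusted p = 3.81e-04), and C44B11.6 turned to 0.22 (adjusted p = 0.133). Of the features, 181 were called higher and 77 lower on the TMM scale, where total counts gave 863 and 44. All 6 loci were called higher on all counted reads, beside 3862 features higher and 20 lower of 11648, and when the fit held only the groups compared, beside 2194 and 31, so the number called rests on the scaling.

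Between the enrichment with WAGO-3 and that with WAGO-1, 1 of the 6 loci was called higher and 3 lower, beside 12.4% and 15% of all features. bath-45 was more enriched with WAGO-3 (2.10) than with WAGO-1 (1.27), a difference of 0.84 ± 0.10 (SE), with an adjusted p of 5.14e-13. E01G4.5 was depleted further with WAGO-3 (-3.53) than with WAGO-1 (-2.46), by -1.07 ± 0.20 (SE), with an adjusted p of 7.76e-06, as was C44B11.6, by -0.81 ± 0.11 (SE), with an adjusted p of 1.55e-10. bath-45 and C44B11.6 kept their calls in every leave-out, and E01G4.5 lost its call without replicate C of the WAGO-1 IP once the factors were recomputed (-0.50, adjusted p = 0.0549). F37D6.3 was less enriched with WAGO-3 (1.55) than with WAGO-1 (1.97), by -0.42 ± 0.09 (SE), with an adjusted p of 1.92e-04. With the factors recomputed, that call was lost on leaving out WAGO-1 IP replicate A, B or C (0.01, -0.05 and -0.04) or the same letters of the WAGO-3 IP (-0.02, -0.05 and -0.01), each of which moved the median of all features by 0.38 to 0.41, and with only the groups compared (-0.03, adjusted p = 0.856). Y43F8B.9 (-0.38 ± 0.30, adjusted p = 0.364) and sago-2 (0.39 ± 0.34, adjusted p = 0.421) were not called. The bath-45 to F37D6.3 ratio, which no factor touches, was 1.41 or more in each WAGO-3 IP library and 0.638 or less in each WAGO-1 IP library.

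The inputs of the WAGO-3 and WAGO-1 strains were closer to each other, with 1 locus called higher in the WAGO-3 strain and 1 lower, beside 5.73% and 8.01% of all features. E01G4.5 averaged 317 ± 35.9 CPM in inputs of the WAGO-3 strain and 429 ± 23.4 in those of the WAGO-1 strain, a log2 fold of -0.42 ± 0.12 (SE), with an adjusted p of 0.00823. It lost its call without replicate C of the WAGO-3 input (-0.36, adjusted p = 0.0745) and on all counted reads (-0.31, adjusted p = 0.101). bath-45 averaged 5014 ± 264 CPM in inputs of the WAGO-3 strain and 4339 ± 110.0 in those of the WAGO-1 strain, a log2 fold of 0.21 ± 0.07 (SE), with an adjusted p of 0.0292. The bath-45 call was lost with DESeq2 (0.11, adjusted p = 0.486) and without replicate A or B of the WAGO-1 input (0.19 and 0.20) or A or C of the WAGO-3 input (0.20 and 0.16). The log2 folds of F37D6.3, C44B11.6, Y43F8B.9 and sago-2 were 0.13, -0.13, -0.18 and 0.06 and were not called. C44B11.6 was called lower there under 6 alternatives, at -0.23 with RLE factors, -0.26 with no filter, -0.26 with the filter at 50, -0.27 with genes only, -0.25 with only the groups compared and -0.23 with DESeq2.

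Across the 18 libraries, which share their scaling and their split into IP and input, log2 CPM of bath-45 and F37D6.3 correlated at Pearson r = 0.919, and those of C44B11.6 with E01G4.5, C44B11.6 with Y43F8B.9 and E01G4.5 with Y43F8B.9 at 0.976, 0.989 and 0.964. The profile of sago-2 was unlike all of these, with r from -0.68 to 0.32. Among 9863 other genes tested, the profile most like that of bath-45 was ZC15.10 (r = 0.992), followed by Y52B11A.11 and F16B4.6. F37D6.3 was matched most closely by Y71A12B.10 (r = 0.995), K08F11.1 and K09H11.11. C44B11.6 was nearest to eri-12 (r = 0.999), Y37E11B.2 (0.997) and K02E2.6 (0.995), E01G4.5 to Y17D7B.4 (0.993), fbxa-61 and K02E2.11, and Y43F8B.9 to WBGene00021019 (0.994), eri-12 (0.992) and Y37E3.30. The profiles of C44B11.6 and Y43F8B.9 thus share eri-12 among their nearest genes, where the log2 fold of IP over input was -3.85 in the deletion, -4.59 with WAGO-3 and -3.80 with WAGO-1. The nearest profile to sago-2, that of pbrm-1, reached r = 0.853 only.

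Other loci known from general knowledge of the field as 22G templates give the setting for the 6. Of 28 listed, 18 were in the table and 16 were tested. In the deletion 4 were higher and 8 lower in the IP, with WAGO-3 6 and 10, and with WAGO-1 5 and 10, with median log2 folds of -2.34, -3.63 and -2.58 beside 0.40, 0.23 and 0.52 over all features. On total counts the numbers were 1 and 12, 4 and 11 and 2 and 12. The shares of all features on both scales are those given above for IP over input. K02E2.6, of the ERGO-1 branch, lay at -3.27, -4.74 and -3.45, below C44B11.6 in each, and F55C9.3 lay lower still, at -6.53, -5.25 and -6.35. On the TMM scale 5 of the 16 lay above 0 in all 3 IPs, as bath-45 and F37D6.3 did: C38D9.2 (0.26, 2.83 and 1.66), F15D4.5 (1.38, 2.47 and 2.01), C18D4.6 (1.37, 2.59 and 1.30), sosi-1 (0.91, 2.74 and 1.57) and eri-7 (1.15, 1.02 and 0.07). Between the deletion IP and the WAGO-1 IP, 1 of the 16 was higher and 11 lower (median -0.71), beside 30.6% and 31.8% of all features. Total counts gave 6 and 6, beside 8062 and 1972 of the 11648 features. C38D9.2 and sosi-1 stood there at -5.52 and -5.22, far below any of the 6 loci. They were also lower in the deletion input than in the WAGO-1 input, at -4.13 and -4.56. In the input of the WAGO-3 strain, where dpf-3 is intact, they were lower than in the WAGO-1 input too, at -2.53 and -3.62. R06C1.4 stood at -4.23, -3.62 and -4.20 in the same comparisons. C18D4.6 and F15D4.5 stood at -4.85 and -3.44 between the IPs and -4.93 and -2.80 between the deletion and WAGO-1 inputs. Between the WAGO-3 and WAGO-1 inputs these loci were not lower, at 0.52 and 0.44. The cause of these differences was not tested. Between the deletion and WAGO-1 inputs 0 of the 16 were higher and 13 lower, beside 8.61% and 14.9% of all features. Total counts gave 4 and 5 there, beside 3384 and 1183 of the 11648 features. In the change of enrichment with the deletion 0 were higher and 5 lower, where total counts gave 3 and 2, beside 1.55% and 0.661% of all features on the TMM scale. Between WAGO-3 and WAGO-1 enrichment the numbers were 6 and 4, and 5 and 4 on total counts, beside 12.4% and 15%.

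sago-2 belongs to the Argonaute genes, of which 17 of 22 listed were tested. Between the deletion IP and the WAGO-1 IP 6 of the 17 were higher and 4 lower on the TMM scale (median log2 fold 0.29), beside 30.6% and 31.8% of all features. On total counts 16 were higher and 0 lower, beside 8062 and 1972 of the 11648 features. The largest call was ppw-2, which encodes WAGO-3, at 4.46 ± 0.09, and wago-1 stood at 2.67 ± 0.18, both above the 0.99 of sago-2. Of the genes for mutator proteins and RNA-dependent RNA polymerases, which make 22G RNAs, 20 of 22 were tested. Between the same IPs 13 were higher and 1 lower (19 and 0 on total counts), beside the same shares of all features, with mut-16 at 2.45 ± 0.12. Between the deletion and WAGO-1 inputs each of these 2 lists gave 6 higher and 0 lower, beside 8.61% and 14.9% of all features. On total counts the Argonaute genes gave 11 and 0 and the others 14 and 0, beside 3384 and 1183 of the 11648 features. On the TMM scale ppw-2 and wago-1 stood at 1.51 and 1.46 between these inputs. In the IP over input, Argonaute genes gave 4 higher and 7 lower in the deletion, 4 and 10 with WAGO-3, and 4 and 10 with WAGO-1 (on total counts 1 and 11, 1 and 15, and 2 and 13), beside the shares of all features given above. The mutator and polymerase genes gave 5 and 9, 6 and 5, and 3 and 12 (on total counts 1 and 14, 0 and 16, and 1 and 18), beside the same shares. bath-45 belongs to the bath genes, with 29 of 35 others tested. Of these, 17 were higher and 2 lower in the deletion IP than in its input. With WAGO-3 22 were higher and 3 lower, and with WAGO-1 16 and 3, beside the same shares of all features. On total counts the numbers for the bath genes were 7 and 4, 5 and 6, and 3 and 17. On the TMM scale bath-20 was among those higher in all 3, with 1.66, 1.66 and 1.52. Related bath genes share sequence, and the rule for reads with several hits is not given in the sources used here, so reads at bath-45 may be split or shared with them.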

How the data were processed

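Small RNAs of 18 libraries (6 groups of 3, from GEO's labels) were analysed from the deposited table of raw counts per gene and per unnamed interval. Per the labels, RNA was treated with a 5' polyphosphatase before library preparation with the QIAseq miRNA kit, and the small RNA enrichment step was used for inputs only. Tools and versions in the submitters' processing notes are Bowtie 1.2.3, HTSeq 0.11.2, cutadapt 2.3 and SAMtools 1.9, with build ce11. Not given in the sources used here: strand setting, annotation release, treatment of reads with several hits, and whether molecular identifiers were collapsed. The summary lines that HTSeq adds, 5 in number, were left out of library sizes and tests. Of 20134 gene IDs, 19832 had a symbol in the name table, and all 6 members matched RefSeq (WBcel235).

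Counts were filtered with filterByExpr (minimum count 10) in edgeR 4.0.16 (R 4.3.3), which left 11648 features, scaled by TMM, and fitted with 1 mean per group over all 18 libraries. Each comparison is a contrast tested by edgeR's quasi-likelihood F-test, two-sided, with Benjamini-Hochberg adjustment over all features tested and calls at an adjusted p under 0.05. The SE is the log2 fold divided by the root of F. The script was tested on simulated counts. Alternatives were RLE factors, total feature counts, all counted reads, DESeq2 1.42.0, no filter, a filter at 50, genes only, only the groups compared, replicate blocks, and each library left out. Leaving out libraries with the TMM factors kept was chosen after seeing the data. A count of 3 is worth 0.500 to 3.03 CPM in IPs and 4.41 to 14.2 CPM in inputs. These floors cover counting error only. The members, gene lists and tests were chosen with earlier results of these data known. Besides the members, the rule for named genes took the 3 genes most like each member, the targeted genes, up to 2 genes of a list per comparison by smallest p and overlapping intervals. F15D4.5, R06C1.4, K02E2.6, eri-7 and eme-1 were named outside it, after their values were seen.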

Additional observations from a re-analysis of the deposited data

Results flagged for a closer look

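Tests of a difference between enrichments marked 5 results at the 6 loci. With the dpf-3 deletion, the log2 enrichment of bath-45 with WAGO-1 was 1.62 in the deletion and 1.27 in the intact strain, a difference of 0.35 whose call was lost on leaving out any of 7 libraries with the TMM factors kept, and any of 6 with the factors recomputed. With recomputed factors it ran up to 0.99, without replicate C of the WAGO-1 IP. Between WAGO-3 and WAGO-1 the difference was 0.84 for bath-45, -0.42 for F37D6.3, -1.07 for E01G4.5 and -0.81 for C44B11.6. The F37D6.3 difference lost its call in 6 leave-outs with recomputed factors and with only the groups compared (-0.03, adjusted p = 0.856). The ratio of bath-45 to F37D6.3 reads separates the IPs without any scaling, and gives no sign for either locus alone. No group has 4 libraries, so single libraries were not tested as outliers.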

How the results depend on the processing

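Of 48 log2 folds at the 6 loci, total counts turned the sign of 8 and all counted reads of 7. Log2 folds that turned on total counts were -0.19 for bath-45 in the WAGO-1 IP over input, -0.0844 for F37D6.3 with WAGO-3, 0.59, 0.19, 0.49 and 0.45 for bath-45, E01G4.5, C44B11.6 and Y43F8B.9 between deletion and intact IPs, 0.27 for C44B11.6 between those inputs, and 0.22 for its change of enrichment. On all counted reads they were 0.62 for sago-2 in the deletion IP over input, 0.72, 0.0155, 0.32, 0.62 and 0.58 for bath-45, F37D6.3, E01G4.5, C44B11.6 and Y43F8B.9 between the IPs, and 0.88 for the change at C44B11.6. That change was 0.37 with no filter, 0.31 with the filter at 50 and 0.57 with only the groups compared. The other turns were of results not called: sago-2 in the deletion IP over input (0.16 with no filter), Y43F8B.9 between WAGO-3 and WAGO-1 enrichments (0.00167 with only the groups compared), F37D6.3 between the WAGO-3 and WAGO-1 inputs (-0.00104 with no filter, -0.0115 with genes only) and sago-2 there (-0.0256 with RLE factors, -0.0774 with no filter, -0.056 with the filter at 50, -0.0743 with genes only, -0.0566 with only the groups compared, -0.0432 with DESeq2).

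Of the 6 loci, total counts called 1 higher in the WAGO-1 and WAGO-3 IPs over input, 4 higher and 0 lower between deletion and intact IPs, 2 higher and 1 lower between their inputs, and 2 higher in the change of enrichment. All counted reads called 5 higher and 0 lower between those IPs, beside 8357 and 1824 of 11648 features, and 6 higher in the change, beside 3862 features higher and 20 lower. The number higher in the change was also 6 with only the groups compared, beside 2194 features, 5 with the filter at 50, beside 1238 of 5254, and 3 with no filter, beside 814 of 46911. Between the WAGO-3 and WAGO-1 inputs, 0 were higher and 2 lower with RLE factors, no filter, the filter at 50, genes only, only the groups compared and DESeq2, and 0 lower on all counted reads. The cause of these moves beyond the scaling was not tested.

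With 1 library left out, the number called lower between deletion and intact IPs ran from 3 to 5, that called higher in the change of enrichment from 0 to 6, those called higher and lower between WAGO-3 and WAGO-1 enrichments from 1 to 2 and from 1 to 3, and those between the WAGO-3 and WAGO-1 inputs from 0 to 1 each. Log2 folds whose sign turned in some leave-out ran from -0.40 to 0.0617 for sago-2 in the deletion IP over input, from -0.0600 to 0.63, -0.00677 to 0.84 and -0.19 to 0.42 for the change of enrichment at F37D6.3, E01G4.5 and C44B11.6, from -0.46 to 0.0144 and -0.61 to 0.20 for WAGO-3 over WAGO-1 enrichment at F37D6.3 and Y43F8B.9, and from -0.23 to 0.32 for sago-2 between the WAGO-3 and WAGO-1 inputs. A left-out WAGO-1 IP library with recomputed factors moved the median of all features, so these ranges mix the library with its scaling.

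Same-letter libraries of different groups deviated together with correlations from -0.02 to 0.14, so the letters are not shown to pair samples. The 0.14 was of replicates A of the deletion and WAGO-1 IPs, which stood apart above, where unlike letters reached 0.097. Between the deletion and WAGO-1 inputs, same-letter values of 0.013, 0.0063 and 0.012 lay above the highest of unlike letters (-0.00063). Whether same-letter libraries were handled together was not tested. A replicate block by letter changed 0 of the 48 log2 folds' calls (bath-45 in the WAGO-1 IP over input stood at 1.27), and a replicate block by strain and letter 0 of 30. Depth limits sago-2 and Y43F8B.9, whose libraries held as few as 10 and 6 reads.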
